A study of Homo sapiens with 4 samples.

Results

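G0S2, RNF223, RGS10, FAM43A, NRTN and KCNK15 are 6 genes whose transcripts rose strongly in Ishikawa cells treated with estradiol (E2), and they were chosen on those same Ishikawa levels. Each ranked among the first 5 genes by log2 fold change at 2 or 8 h, as DHRS3 and TGFA also did, which are not members. All 6 rows were found among the 33540 features of the Ishikawa matrix and among the 33538 features of the T-47D matrix. Levels are in CPM, a gene's UMIs per 1000000 UMIs of the pooled cells, where each UMI stands for 1 captured transcript. A minimum level, 10 CPM averaged over the pools of a line, was reached by 7885 genes in Ishikawa, all 6 among them, and by 7440 genes in T-47D, of which RNF223 and RGS10 were 2. Ishikawa is an endometrial adenocarcinoma line and T-47D a breast ductal carcinoma line, both carrying estrogen receptor alpha. Cells of each line received 10 nM E2 for 2, 4 or 8 h, or the vehicle DMSO for the 0 h pool, after several days in hormone-depleted medium. The cells of each time point were tagged with lipid-anchored barcodes (MULTI-seq), mixed and sequenced as 1 single-cell library per line. Each line and time point was therefore 1 culture, no test between time points was possible, and every interval given here is a 95% interval that covers counting error alone.

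After the filters on UMIs, genes and mitochondrial UMIs given in the study's methods, 776, 1480, 892 and 1465 Ishikawa cells remained at 0, 2, 4 and 8 h, with 15305038, 29865829, 19362627 and 30994433 UMIs. For T-47D, 1525, 1207, 1341 and 553 cells held 33175309, 26525924, 29649051 and 12927799 UMIs. The Ishikawa 0 h pool stood apart in that 38.2% of its called cells passed the filters, against 52.4% to 55.8% at the other times, and every Ishikawa fold change below is relative to that pool. PAX8, HOXA10 and EMX2, markers of Müllerian epithelium, were at 52.2 to 133 CPM in Ishikawa and had no UMI in T-47D, whereas GATA3 was at 444 to 518 CPM in T-47D and had 1 UMI in Ishikawa. Of 11 immune, endothelial and fibroblast markers, COL1A1 alone passed 10 CPM (19.8 to 28.9 in Ishikawa), and PTPRC, CDH5 and PDGFRB were at or below 0.101 CPM in both lines. ESR1, which encodes the receptor, was at 34.1 to 44.5 CPM in Ishikawa and 25.8 to 39.3 CPM in T-47D. The 2 libraries shared 80 barcode sequences, 5 of them among kept cells.

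E2 enters the cell, binds the estrogen receptor and sends it to estrogen response elements, most of which lie in enhancers away from promoters. Which genes respond differs greatly between endometrial and breast cells, because the receptor binds different enhancers in each. The 6 genes have unrelated products. G0S2 is an inhibitor of the triglyceride lipase ATGL (gene PNPLA2). RGS10 speeds GTP hydrolysis on G protein alpha subunits, NRTN (neurturin) is a secreted ligand of the GDNF family that signals through GFRA2 and the receptor tyrosine kinase RET, and KCNK15 belongs to the family of two-pore domain potassium channels. RNF223 encodes a RING finger protein and FAM43A a protein with a phosphotyrosine interaction domain, both little studied.

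The genes lie on different chromosomes or far apart. In GRCh38.p14, G0S2 spans chr1:209675412-209676390, RNF223 chr1:1070967-1074306, RGS10 chr10:119499817-119542719, FAM43A chr3:194685883-194689037, NRTN chr19:5805067-5828324 and KCNK15 chr20:44745865-44752313. KCNK15 overlaps the spans of KCNK15-AS1, with 1 to 14 UMIs in the Ishikawa pools, and of RIMS4, with 40 to 169. RIMS4 also rose in Ishikawa, at 2.61, 3.18, 4.39 and 5.45 CPM at 0, 2, 4 and 8 h. KCNK15-AS1 was at 0.065, 0.134, 0.516 and 0.452 CPM. Whether the counting used the strand is not given in the sources used here. RefSeq promoters (GRCh38.p14, 250 bases before to 50 bases after the start site) were available for 5 of the 6 genes, and those of the 3 genes with the largest log2 fold change at 2 h are shown because each holds the GGTCA motif, the arm that the estrogen response element carries on either side. The motif (GGTCA, or TGACC on the opposite strand) is in capitals.
G0S2, chr1:209675162-209675461, plus strand: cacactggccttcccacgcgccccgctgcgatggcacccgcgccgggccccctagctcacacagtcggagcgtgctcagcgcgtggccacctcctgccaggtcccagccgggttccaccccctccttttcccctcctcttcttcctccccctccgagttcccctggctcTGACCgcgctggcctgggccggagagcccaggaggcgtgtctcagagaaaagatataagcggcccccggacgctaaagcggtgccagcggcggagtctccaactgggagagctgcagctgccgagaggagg
RNF223, chr1:1074257-1074556, minus strand: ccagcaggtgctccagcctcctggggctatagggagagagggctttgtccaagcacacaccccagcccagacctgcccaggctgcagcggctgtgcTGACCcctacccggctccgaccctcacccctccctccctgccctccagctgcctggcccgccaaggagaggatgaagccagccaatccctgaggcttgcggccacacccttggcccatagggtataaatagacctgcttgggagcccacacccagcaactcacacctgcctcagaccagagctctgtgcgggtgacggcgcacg
RGS10, chr10:119542670-119542969, minus strand: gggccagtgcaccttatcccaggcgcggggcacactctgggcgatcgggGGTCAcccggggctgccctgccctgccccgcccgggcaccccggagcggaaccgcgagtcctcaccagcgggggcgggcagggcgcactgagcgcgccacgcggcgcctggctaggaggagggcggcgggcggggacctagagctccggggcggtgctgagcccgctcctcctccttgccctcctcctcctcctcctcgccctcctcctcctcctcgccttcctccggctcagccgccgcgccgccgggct

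The motif begins 81 bases before the start of G0S2, 154 before that of RNF223 and 201 before that of RGS10. It occurs on either strand in 37.4% of the 35116 promoters of the table, so 3 of 5 members is a description of these windows. It was not found in the second RGS10 promoter, at chr10:119536537-119536836, nor in those of FAM43A and NRTN. No member's window held the full element (GGTCANNNTGACC), which 0.0570% of all promoters held. No AP-1 site (TGANTCA, 7.71% of promoters) was found either. RNF223 alone had a TATA box (TATAAA, 11.5% of promoters), 32 bases before its start. GC boxes (GGGCGG, 45.0% of promoters) numbered 6 in NRTN, 5 in the first RGS10 promoter and 1 in FAM43A. A match says only that these letters are in the window.

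The members followed different courses in Ishikawa. G0S2 was highest at 4 h, and RGS10 was level from 2 to 4 h and slightly lower at 8 h. RNF223 and FAM43A were highest at 2 h and then declined, and NRTN and KCNK15 climbed through 8 h. G0S2 had 18.6 CPM before E2 (95% interval 16.5 to 20.9), then 124, 153 and 94.1 CPM after 2, 4 and 8 h. Its level was 6.66 times the 0 h level at 2 h (5.90 to 7.54), 8.24 times at 4 h (7.30 to 9.34) and 5.05 times at 8 h (4.47 to 5.73). The 8 h level was 0.613 of that at 4 h (0.582 to 0.646), so the decline lay outside counting error. The 4 h level of G0S2 was 1.24 times that at 2 h (1.18 to 1.30). In cells with under 1% of UMIs from the reporter GFP it was 1.35 times (1.28 to 1.44), and with at least 1% it was 1.02 times (0.936 to 1.12). Called cells outside the filters held 123 and 121 CPM at 2 and 4 h. These intervals leave out the sampling of cells, which matters for G0S2 because few cells held many of its UMIs.

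RGS10 stood at 19.6, 68.2, 67.9 and 60.5 CPM at 0, 2, 4 and 8 h. Its 4 h level was 0.996 of the 2 h level (0.928 to 1.07), the only neighbouring Ishikawa levels among treated pools that were not separated by counting error for any member, and at 8 h it was 0.891 of the 4 h level (0.830 to 0.957). RNF223 was at 5.10, 23.6, 17.4 and 14.6 CPM, that is 4.63 times its 0 h level at 2 h (3.66 to 5.93) and 2.86 times at 8 h (2.25 to 3.69). FAM43A was at 10.1, 34.7, 18.7 and 13.0 CPM. Its 3.43-fold rise at 2 h (2.89 to 4.09) had shrunk to 1.28-fold at 8 h (1.06 to 1.56), the lowest 8 h ratio of the members.

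NRTN was at 12.3, 36.5, 40.1 and 50.2 CPM, with 1.38 times as much at 8 h as at 2 h (1.27 to 1.49). KCNK15 went from 4.90 CPM at 0 h to 8.17, 12.8 and 18.6 CPM. At 8 h KCNK15 was 2.27 times its 2 h level (1.96 to 2.65), so most of its rise came after the time at which RNF223 and FAM43A had peaked.

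**Figure D1:**
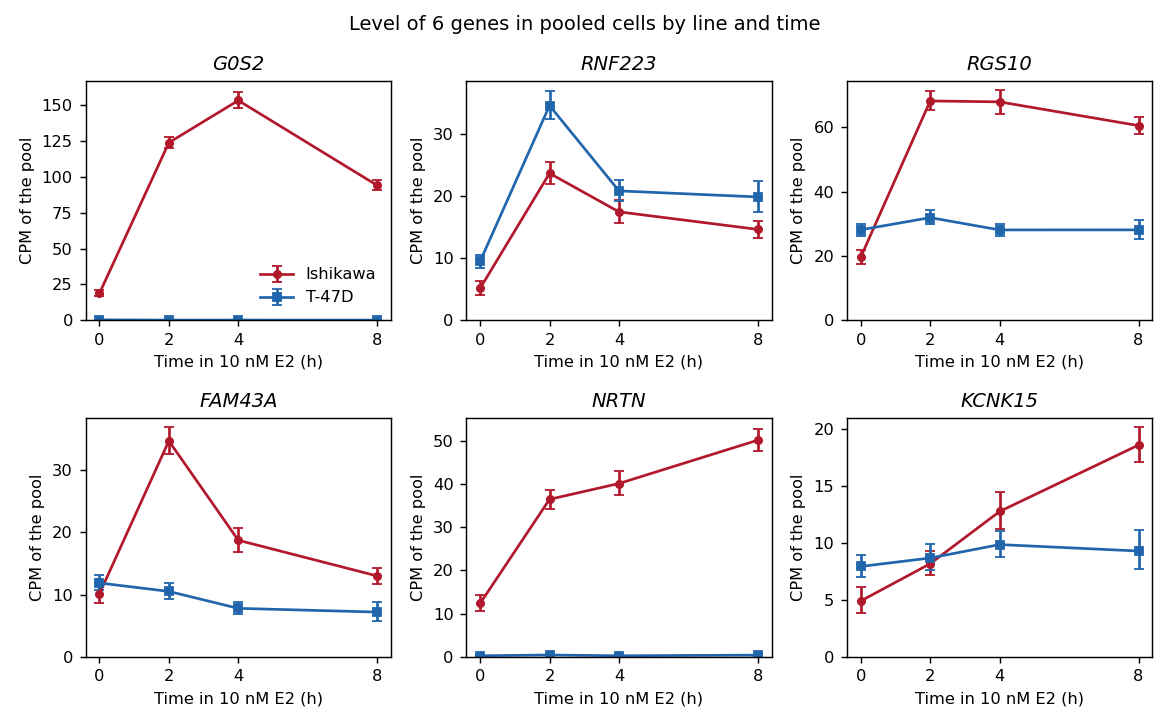
Level of each gene in pooled cells (y axis, CPM, linear, each panel with its own scale) against time in E2 (x axis, hours), with Ishikawa as red circles and T-47D as blue squares, 1 pool per point and bars giving the 95% Poisson interval. G0S2 and NRTN were near 0 in T-47D throughout, and RNF223 was the only gene past 1.5-fold upward in both lines.

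On the log2 scale with a pseudocount of 1 CPM, the scale on which the members were chosen, the changes at 2 h were 2.67 for G0S2, 2.01 for RNF223, 1.75 for RGS10, 1.68 for FAM43A, 1.49 for NRTN and 0.64 for KCNK15. At 8 h they were 2.28, 1.35, 1.58, 0.33, 1.94 and 1.73 in the same order. All 6 passed 1.5-fold at 2 h, where 0.786% of all Ishikawa genes did, all 6 at 4 h (0.634% of genes), and 5 at 8 h (0.812% of genes), FAM43A being the exception. KCNK15 at 2 h was under 1.5-fold in 4 alternatives and FAM43A at 4 h in 2. No member was lower by 1.5-fold at 2, 4 or 8 h, as 0.659%, 0.621% and 0.469% of genes were. These counts come from the contrast that chose the members, so nothing is read from them. Ranked among 7885 genes, G0S2 was 1st, 1st and 2nd at 2, 4 and 8 h, RNF223 fell from rank 2 to 13 and FAM43A from 5 to 291, while NRTN moved from rank 7 to 3 and KCNK15 from 54 to 5. At the edge of the choice, PIM1 followed FAM43A at 2 h with a change of 1.60.

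The genes whose Ishikawa log2 changes over 2, 4 and 8 h lay nearest to each member were looked up. For NRTN this was TGFA, a growth factor of the EGF family, with changes of 1.48, 1.60 and 1.84 and a root mean square difference of 0.06. For KCNK15 it was DEPTOR, an inhibitor of mTOR, with 0.67, 1.13 and 1.37 (difference 0.22), and for FAM43A it was RHOU, a small GTPase, with 1.45, 0.95 and 0.83 (difference 0.32). RNF223 and RGS10 were each nearest to the other (difference 0.22). G0S2 had no close neighbour, the nearest being the retinal reductase DHRS3 at 0.70, which unlike G0S2 still rose at 8 h (2.95).

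In T-47D, RNF223 alone of the 6 passed 1.5-fold upward. Its T-47D level was 9.43 CPM without E2, 34.5 after 2 h, 20.8 after 4 h and 19.8 after 8 h, or 3.66 times (3.21 to 4.17), 2.20 times (1.92 to 2.53) and 2.10 times (1.77 to 2.48) its 0 h level. The line had not been used to choose the gene. Yet RNF223 was under 10 CPM there before E2 and reached the minimum mean only through the treated pools. Its T-47D ranks and the shares of genes set beside them are thus descriptions. RNF223 ranked 6, 34 and 62 of 7440 genes, with log2 changes of 1.77, 1.06 and 1.00. In both lines it peaked at 2 h, and its level was 0.618 of the peak at 8 h in Ishikawa (0.548 to 0.696) and 0.574 in T-47D (0.498 to 0.660). Its level was lower in Ishikawa than in T-47D at each time, from 0.540 times at 0 h (0.416 to 0.694) to 0.838 times at 4 h (0.731 to 0.958).

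RGS10 was expressed in T-47D at 28.1, 31.9, 28.1 and 28.1 CPM, and thus above the Ishikawa level before E2 and below it afterwards. Its T-47D ratio to 0 h was 1.14 at 2 h (1.03 to 1.247), 0.999 at 4 h (0.909 to 1.10) and 1.00 at 8 h (0.883 to 1.13), all below the 3.48-fold Ishikawa change at 2 h (3.08 to 3.94). Of the 2 members that reached the minimum level in T-47D, RNF223 passed 1.5-fold upward at 2, 4 and 8 h and RGS10 did not, where 1.22%, 1.33% and 2.34% of all T-47D genes passed. Neither was lower by 1.5-fold, as 0.417%, 0.363% and 0.726% of genes were.

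The 4 other members were under the minimum mean level in T-47D. FAM43A did not rise there, at 11.9, 10.5, 7.79 and 7.19 CPM. Its T-47D ratio to 0 h was 0.886 at 2 h (0.757 to 1.04) and 0.606 at 8 h (0.478 to 0.761). The log2 change of FAM43A at 8 h, -0.65, was past 1.5-fold downward. It is not in the counts above because its mean was under the minimum. With levels above 10 CPM at 0 and 2 h, it was the later decline that brought its mean there. From 2 to 8 h it declined in both lines, to 0.684 of the 2 h level in T-47D (0.535 to 0.868) and 0.374 in Ishikawa (0.333 to 0.421). Before E2 the FAM43A level was 0.853 times as high in Ishikawa as in T-47D (0.703 to 1.03), and at 2 h it was 3.30 times as high (2.89 to 3.78). KCNK15 lay between 7.93 and 9.85 CPM, with a ratio of 1.24 at 4 h (1.05 to 1.47), and its ratio at 8 h was 1.17 (0.936 to 1.46) against 3.79 in Ishikawa (2.98 to 4.89). G0S2 and NRTN were hardly detected in T-47D, with 6, 0, 1 and 0 UMIs and 8, 11, 7 and 5 UMIs. At 0 h, when neither line had received E2, G0S2 was 103 times higher in Ishikawa (46.7 to 283) and NRTN 51.2 times (25.5 to 120). The counts of 0 at 2 and 8 h allow up to 0.113 and 0.232 CPM of G0S2 when the limit is set at 3 counts of the pool, and up to 0.139 and 0.285 CPM by the upper bound of the 95% Poisson interval.

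Genes that act with the members were counted from lists drawn up by function. RGS10, NRTN and KCNK15 are in these lists and were chosen for their rise, so their own passing is no result. Of all Ishikawa genes, 0.786%, 0.634% and 0.812% were higher by 1.5-fold at 2, 4 and 8 h, and 0.659%, 0.621% and 0.469% lower. At such shares hardly any gene of a short list would pass, so a count of none is no result either. Of 21 RGS genes, 3 reached the minimum in Ishikawa and RGS10 alone passed 1.5-fold, while the 8 h level was 0.870 of that at 0 h for RGS3 (0.766 to 0.989) and 0.680 for RGS20 (0.566 to 0.817). Of 17 lipolysis and lipid droplet genes around G0S2, 6 reached the minimum in Ishikawa and none passed in either direction, with a median log2 change of 0.09 at 2 h, against -0.01 over all genes. The lipase gene PNPLA2 was at 32.5 CPM at 0 h and 28.8 at 8 h, and its activator ABHD5 at 70.4 and 74.3. In T-47D, 1 of 6 such genes passed, HILPDA, which encodes another ATGL inhibitor and went from 169 CPM at 0 h to 111 and 109 CPM at 2 and 4 h. Of all T-47D genes, 0.417% and 0.363% were lower by 1.5-fold at those times.

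Of 11 genes of GDNF family ligands and receptors, NRTN alone reached the minimum in Ishikawa. The receptors through which neurturin signals were nearly absent there, with 14 UMIs of GFRA2 and 13 of RET over the 4 pools and none of GFRA1. In T-47D, where NRTN itself was at the detection limit, RET had 10 UMIs at 0 h and 34, 49 and 21 at 2, 4 and 8 h, that is 5.39 times as much per UMI sequenced at 8 h (2.43 to 12.8). Of 15 two-pore channel genes, 3 reached the minimum in Ishikawa and KCNK15 alone passed, with KCNK1 at 17.4 and 17.9 CPM at 0 and 8 h. In T-47D the member of that list that passed was KCNK6, at 43.4, 82.1, 60.2 and 66.9 CPM, past 1.5-fold at 2 and 8 h. Of all T-47D genes, 1.22% and 2.34% were higher by 1.5-fold at those times. None of the other 5 RING finger genes listed beside RNF223 reached the minimum in either line, nor did FAM43B, the paralogue of FAM43A. Of 20 genes known to respond to estrogen, mostly from breast cells, 10 reached the minimum in Ishikawa. Of these, 4, 3 and 3 were higher at 2, 4 and 8 h (MYC and SIAH2 at each time), against 0.786%, 0.634% and 0.812% of all genes. GREB1, PGR and CA12 were under the minimum in Ishikawa, yet at 8 h they were 3.32, 5.15 and 3.61 times their 0 h level. TFF1, TFF3 and CXCL12 were hardly detected there. In T-47D 17 reached the minimum, and 15, 13 and 14 were higher, against 1.22%, 1.33% and 2.34% of all genes. Among them was GREB1 at 10.4 and 47.3 CPM at 0 and 8 h. Some reached the minimum only through the treated pools, as did TFF1, at 4.88 CPM at 0 h.

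The 6 rises differed in how they were spread over Ishikawa cells, and G0S2 was set apart by concentration in few cells. Before E2, 17.3% of cells held a UMI of G0S2 (14.7 to 20.1). With E2 the share was 35.3% after 2 h (32.9 to 37.8), 38.8% after 4 h (35.6 to 42.1) and 33.0% after 8 h (30.6 to 35.4). The same number of UMIs spread over cells by their depth would have reached 30.3%, 89.3%, 94.7% and 84.0% of cells. G0S2-positive cells held 2.13 UMIs on average at 0 h and 7.08, 8.59 and 6.04 at 2, 4 and 8 h, and the highest cell held 13, 89, 149 and 81. At 2 h, 58 of 1480 cells (3.92%) accounted for 50% of all G0S2 UMIs, and 64.7% of cells had none. For the other members the share of cells with 50% of the UMIs at 2 h ran from 4.86% for KCNK15 to 12.9% for NRTN. At 0 h it was 3.35% for G0S2, 3.22% for RNF223 and 3.48% for KCNK15. This share depends on the level, because a gene with few UMIs can reach only few cells.

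**Figure D2:**
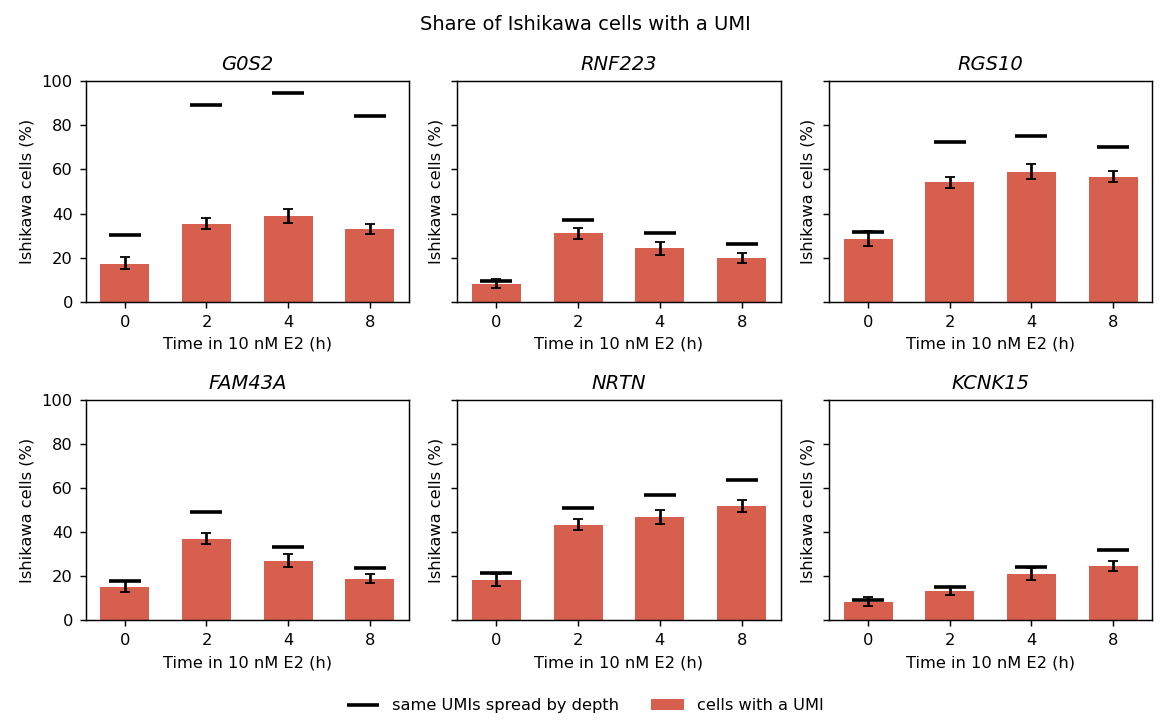
Share of Ishikawa cells with at least 1 UMI of each gene (bars, percent, with exact binomial 95% intervals) at each time in E2 (x axis, hours). The black marks give the share that the same UMIs would reach if spread over the cells by depth, and the gap between bar and mark was widest for G0S2 at 4 h, 38.8% against 94.7%.

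The remaining members came nearer to an even spread. RGS10 was found in 28.6%, 54.2%, 59.0% and 56.7% of cells at 0, 2, 4 and 8 h, against 31.6%, 72.5%, 75.2% and 70.3% for an even spread. NRTN rose from 18.2% of cells at 0 h to 51.8% at 8 h (49.2 to 54.4), where 63.7% would be even. RNF223 reached 31.0% of cells at 2 h and FAM43A 36.9%, from 8.25% and 15.1% at 0 h. KCNK15 was found in 8.25%, 13.1%, 20.9% and 24.4% of cells.

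Thinning each cell to 12539 UMIs, which left 676, 1305, 835 and 1336 cells, allowed the rise of each mean to be divided into more positive cells and more UMIs per positive cell. Of a log2 rise of 2.92 in the thinned mean of G0S2 at 2 h, 1.23 lay in the share of positive cells and 1.68 in UMIs per positive cell. RNF223 showed the opposite balance at 2 h, with 1.73 of 1.99 in the share, as did FAM43A with 1.55 of 1.84, NRTN with 1.40 of 1.54 and RGS10 with 1.07 of 1.71. This division depends on the level, because at low levels an even spread also puts most of a rise in the share. For RNF223 an even spread would give thinned shares of 7.13% at 0 h and 25.5% at 2 h, and 6.51% and 21.5% were found. For G0S2 it would give 18.9% and 79.5%, and 13.0% and 30.6% were found. The KCNK15 rise at 4 h lay in the share, with 1.29 there and -0.04 in UMIs per positive cell. At 8 h, 1.51 of its rise of 1.79 lay in the share and 0.28 in UMIs per positive cell. In T-47D, RNF223 at 2 h divided much as in Ishikawa, with 1.43 of 1.82 in the share.

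The tail of the distribution showed the same contrast. At least 10 UMIs of G0S2 were found in 0.258%, 7.50%, 8.86% and 6.14% of Ishikawa cells at 0, 2, 4 and 8 h, and at least 20 UMIs in 3.11% at 2 h and 4.37% at 4 h. At least 10 UMIs of RGS10 were found in 0.811% of cells at 2 h and 1.01% at 4 h, and no cell held 20. Yet at least 3 UMIs were about as frequent for both at 2 h, in 18.6% of cells for G0S2 and 18.9% for RGS10.

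**Figure D3:**
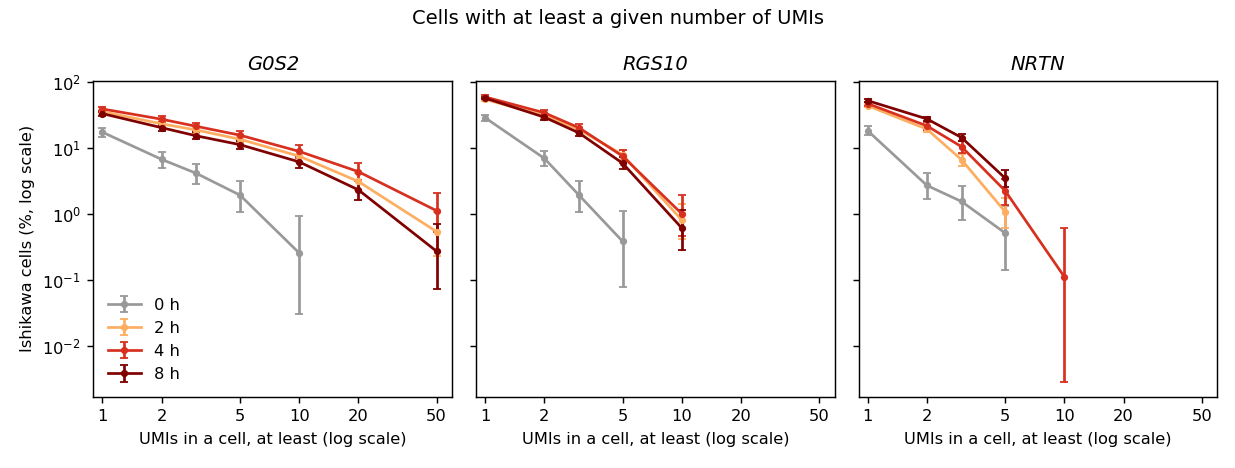
Percent of Ishikawa cells (y axis, log scale) with at least the number of UMIs on the x axis (log scale) for G0S2, RGS10 and NRTN, with a line for each time in E2 and exact binomial 95% intervals, points at 0 left out. The G0S2 curves reached 50 UMIs at each treated time, whereas no cell held 20 UMIs of RGS10 or NRTN.

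For noise between cells, each cell was scaled to 10000 UMIs and the trend of the coefficient of variation (CV) with mean level over all 7885 genes was removed. G0S2 lay at the 99.5th percentile of this residual at 0 h, before E2, and at the 99.9th, 99.9th and 99.8th at 2, 4 and 8 h, ranking 42, 10, 6 and 14. Its CV was 3.33, 2.92, 2.90 and 2.98, while the Fano factor (variance over mean) went from 2.12 to 10.7, 12.3 and 8.34. Among genes of similar level, all 6 members were at or above the 85.7th percentile at each of the 4 times, the lowest being RGS10 at 0 h. Over all genes, RNF223 was at the 85.8th percentile at 0 h, the 94.4th at 2 h and the 99.0th at 8 h. In T-47D, RNF223 went from the 71.9th percentile before E2 to 90.7, 84.2 and 89.1 after 2, 4 and 8 h, and RGS10 was at 65.1, 91.9, 79.4 and 30.9. Before E2, RNF223 and KCNK15 were at 5.10 and 4.90 CPM in Ishikawa and RNF223 at 9.43 CPM in T-47D. They are thus in this ranking only through the treated pools, and the part of that filter in the 0 h percentiles was not tested. With 1 culture each, these shifts have no replicate error.

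The members were only weakly related to each other across cells. Over the 15 pairs, the median Spearman rho in thinned Ishikawa cells was 0.02, 0.05, 0.03 and 0.03 at 0, 2, 4 and 8 h, where 95% of all gene pairs at 2 h lay between -0.06 and 0.08. The pairs of G0S2 with RGS10 and of RGS10 with NRTN stood highest at 2 h, with rho of 0.18 each, and at 8 h, with 0.16 and 0.15. RGS10 and NRTN were found together in 231 of 1305 thinned cells at 2 h, against 179 from the product of their shares. RNF223 and FAM43A, the 2 genes that peaked at 2 h, had an Ishikawa rho of 0.06 at 2 h, 0.18 at 4 h and 0.07 after 8 h. The T-47D values for this pair were -0.01, 0.10 and -0.06. At 4 h they were found together in 46 Ishikawa cells against 24.5 from the product. G0S2 and RNF223 had rho of -0.04, -0.06 and -0.07 at 2, 4 and 8 h. The cells of a pool share a library and the counts are sparse, so these values are descriptions and the weak ones are no finding.

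**Figure D4:**
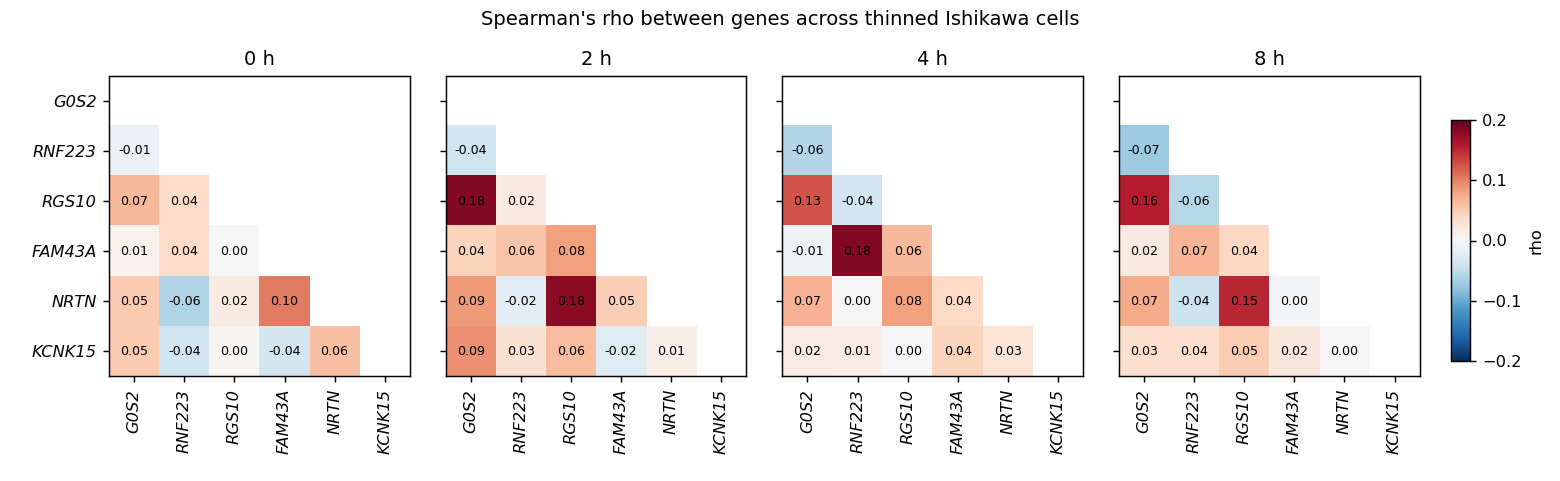
Spearman's rho between each pair of genes across thinned Ishikawa cells (color, from -0.2 to 0.2, with the value in each square), with a panel for each time. RGS10 had its highest values with G0S2 and NRTN, and RNF223 with FAM43A at 4 h.

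The number of members found in each cell was also set beside the product of the single shares. At 0 h, 50.1% of thinned Ishikawa cells had no UMI of any member, and at 2, 4 and 8 h 18.5%, 16.3% and 18.6%. At least 3 members were found in 2.81% of cells before E2 and in 21.8%, 20.8% and 19.8% after 2, 4 and 8 h, against 2.02%, 20.2%, 19.3% and 17.4% from the product of the shares. All 6 were found in 2, 1 and 2 cells at 2, 4 and 8 h.

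Ishikawa cells also differed in GFP, a reporter sequence among the features of that matrix whose origin is not given in the sources used here. Every kept cell held at least 1 GFP UMI, and 1783 of 4613 cells held at least 1% of their UMIs as GFP, 480 of them at least 10%. The 1% limit cuts a continuous range, with 1135 cells (24.6%) between 0.5% and 2%. Because GFP UMIs take up part of the total, levels of both kinds of cell are compared here as CPM over UMIs other than GFP. Ratios between times within a kind of cell, and the figure, use CPM over all UMIs.

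RNF223 declined after 2 h in the cells with less GFP and hardly in those with more. With under 1% GFP, RNF223 was at 22.9, 14.8 and 9.65 such CPM at 2, 4 and 8 h, and with at least 1% it was at 27.5, 24.2 and 25.9. Its 8 h to 2 h ratio of CPM was 0.422 (0.354 to 0.502) in the former and 0.922 (0.774 to 1.10) in the latter. At 8 h the level was 2.69 times as high in cells with at least 1% GFP (2.22 to 3.26), and at 0 h 2.43 times (1.51 to 3.96). FAM43A, which shared the early peak, fell in both, with 8 h to 2 h ratios of 0.355 (0.306 to 0.412) and 0.410 (0.338 to 0.496).

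G0S2, RGS10 and NRTN were lower in cells with at least 1% GFP at 2, 4 and 8 h. At 4 h the ratio between the kinds of cell was 0.692 for G0S2 (0.638 to 0.750), 0.672 for RGS10 (0.593 to 0.759) and 0.731 for NRTN (0.623 to 0.856). Before E2 these genes parted, at 0.993 for G0S2 (0.775 to 1.27), above 1 for RGS10 (interval 1.19 to 1.89) and 0.609 for NRTN (0.433 to 0.843). The RGS10 rise at 4 h was thus 4.64-fold in CPM with under 1% GFP (3.91 to 5.54) and 2.10-fold with at least 1% (1.73 to 2.57). KCNK15 began 2.28 times higher in cells with at least 1% GFP (1.41 to 3.73) and the ratio was 1.11 at 8 h (0.931 to 1.32). Cells with at least 1% GFP made up 42.5% of the 0 h pool and 36.4%, 39.3% and 38.5% of the pools treated for 2, 4 and 8 h, and each of the 5 members above 2-fold at 2 h was so in both kinds of cell, the lowest value being 2.46-fold for RGS10 with at least 1% GFP. The part of GFP in these differences was not tested.

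**Figure D5:**
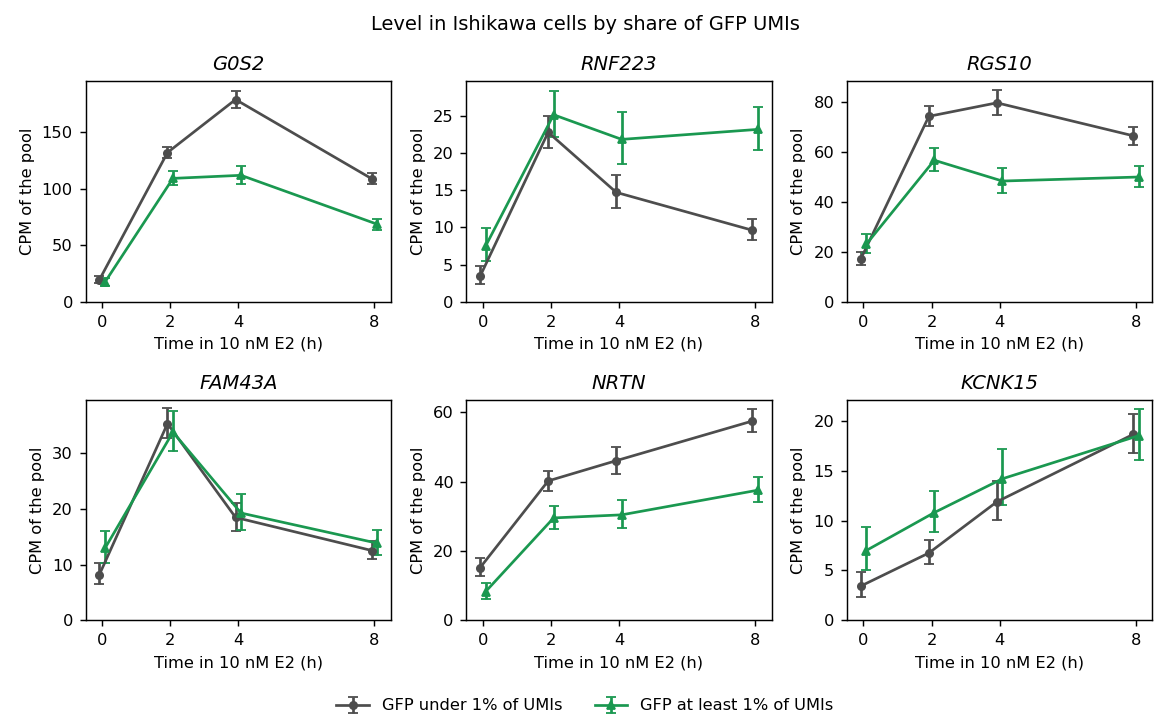
Level of each gene (y axis, CPM, linear, each panel with its own scale) in Ishikawa cells with under 1% (grey circles) and at least 1% (green triangles) of UMIs from GFP, against time in E2 (x axis, hours), with 95% Poisson intervals and points set slightly apart for sight. RNF223 declined after 2 h in the former, while G0S2, RGS10 and NRTN stayed lower in the latter at each treated time. CPM here is over all UMIs, GFP included.

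Proliferating cells were marked by a UMI of TOP2A or MKI67, found in 66.1%, 67.8%, 72.3% and 66.8% of Ishikawa cells at 0, 2, 4 and 8 h. G0S2, named for the switch from G0 to G1 of the cell cycle, was at 163 CPM in cells without such a UMI at 2 h (154 to 172) and at 109 CPM in cells with one (105 to 114). At 0 h the levels were 18.9 (15.1 to 23.3) and 18.5 CPM (16.0 to 21.3), and at 8 h the intervals were 88.7 to 102 and 89.8 to 97.9 CPM, so the gap was seen at 2 h and, at 180 and 145 CPM, at 4 h. RNF223 at 8 h was likewise at 19.0 CPM without (16.3 to 22.1) and 12.7 CPM with such a UMI (11.3 to 14.3). The gap at 2 h was not particular to G0S2. RGS10 was then at 83.0 CPM without (76.9 to 89.4) and 62.6 CPM with such a UMI (59.3 to 66.0). FAM43A was at 39.8 (35.6 to 44.3) and 32.8 CPM (30.4 to 35.3). The 2 h intervals of RNF223, NRTN and KCNK15 overlapped. Cells without the UMI were shallower, with a median of 16661 against 21305 UMIs at 2 h, and the part of depth was not tested.

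Free transcripts in the mixed cell suspension could add UMIs to every pool of a library. The 670 shallowest Ishikawa barcodes, with a median of 928 UMIs, held G0S2 at 79.8 CPM (60.4 to 103), RGS10 at 35.0 CPM (22.6 to 51.6) and NRTN at 37.8 CPM (24.9 to 55.0), all above the 0 h pool. Since the 4 time points were mixed, their part in the 0 h levels was not tested. In the separate T-47D library, where G0S2 was hardly expressed, 0.328% of 0 h cells had a UMI of it (0.107 to 0.763) at a median of 20677 UMIs. The share of Ishikawa 0 h cells was 17.3% at a median of 19122. With so little G0S2 in any T-47D pool, this comparison cannot tell how many Ishikawa 0 h UMIs were free transcripts. The 1906 Ishikawa barcodes called as doublets, used in no comparison, held G0S2 at 98.5 CPM and FAM43A at 21.9 CPM, between the 0 h and 2 h levels.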

How the data were processed

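Single-cell RNA was measured by the 10x Genomics 3′ assay in 2 libraries, with MULTI-seq barcode calls that assign cells to time points. The authors deposited UMI counts per gene and cell, made with Cell Ranger 3.1.0 on hg38 per the submitters' processing notes, and a time point call per cell. The 6 genes and all gene lists were chosen with earlier results of these data known. Of the cells assigned to a single time point, those inside the study's limits were retained. For Ishikawa these were UMIs from 8500 to 35000, genes from 2700 to 6000 and a mitochondrial share below 7%. For T-47D they were UMIs from 7500 to 40000, genes from 1500 to 6000 and a mitochondrial share below 20%. Cells called as doublets by their barcodes were left out, and no further doublet caller was run. UMI counts were summed per line and time point and scaled to CPM over all features. Genes with a mean of at least 10 CPM were ranked by log2 fold change with a pseudocount of 1 CPM, GFP and tdTomato being left out of the ranking. With 1 culture per group no test was run. Intervals are exact Poisson for CPM, exact conditional binomial for ratios and Clopper-Pearson for shares, and ratios within a line share the 0 h pool. UMIs are molecules, but intervals of CPM and of ratios do not cover the spread between cells, and none covers that between cultures. Cells were thinned to the 10th percentile of UMIs of the line (12539 for Ishikawa, 14495 for T-47D) for Spearman correlations and for splitting means. The trend of log2(CV + 1) with log10 mean was fitted by mgcv 1.9.3 in R 4.3.3. Python 3.11.15, numpy 2.4.6 and scipy 1.17.1 were used, and the steps were tested on simulated data. The rule for genes to be named besides the members covered the 3 nearest genes of each by change over time, the genes just outside the choice (that at 8 h is not reported here), listed genes past 1.5-fold, GFRA1, GFRA2 and RET, and GFP, TOP2A and MKI67. Of the nearest genes and listed genes past 1.5-fold only some are given, and these, like a few genes outside the rule, were picked after their values were seen. Promoters were read from a RefSeq table (GRCh38.p14). Alternatives were other pseudocounts, minimum levels, folds, scalings (among them TMM factors from edgeR 4.0.16) and cell filters.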

Additional observations from a re-analysis of the deposited data

Results flagged for a closer look

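FAM43A was singled out because its change from 0 h had opposite signs in the 2 lines. At 4 h its log2 fold change was -0.55 in T-47D against 0.83 in Ishikawa, and at 8 h -0.65 against 0.33. In T-47D its mean was under 10 CPM, with 394, 279, 231 and 93 UMIs at 0, 2, 4 and 8 h. Each line and time had 1 culture, so no test of this difference could be made.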

How the results depend on the processing

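Over 16 alternatives for Ishikawa and 13 for T-47D, 80 of 87 counts of members past the fold stayed within 1.5 times the count given, and among 378 recomputed log2 fold changes no member past 1.5-fold changed sign. Of the 378, 36 moved outside the counting interval of the value given, among them 4 of 12 for G0S2 at 4 h in Ishikawa. A minimum mean of 50 CPM, which leaves G0S2 and RGS10 in Ishikawa and no member in T-47D, gave 2 members higher at each Ishikawa time and 0 at each T-47D time, and a fold of at least 2 gave 0 in T-47D at 8 h. KCNK15 at 2 h (0.64) was under 1.5-fold with a pseudocount of 5 CPM (0.41), with every called cell kept (0.58, against a threshold of 0.585), in thinned cells (0.47) and in cells with at least 1% GFP (0.56). FAM43A at 4 h (0.83) was under it in cells with no UMI of TOP2A or MKI67 (0.46) and, in cells with at least 1% GFP (0.54), an alternative added after the data had been seen. Totals without GFP and tdTomato UMIs were likewise an alternative added after the data had been seen. With every called cell kept, G0S2 was lower, at 2.39, 2.57 and 1.88. Without cells that held TOP2A or MKI67 UMIs, the median rho of the pairs was -0.03 at 4 h and 0.00 at 8 h. In Ishikawa the 0 h levels of KCNK15 and RNF223 rest on 75 and 78 UMIs, and in T-47D those of NRTN and G0S2 on 8 and 6, which limits the precision of their folds. No paired analysis was possible because each line and time point was 1 culture and the result comes from no test. With 1 culture each, no spread between cultures is known.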

Other observations

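The genes most closely related to 3 of the members across thinned Ishikawa cells overlapped, by a search added after the data had been seen and over the mean rho at 2, 4 and 8 h. CXXC5, which encodes a CXXC-type zinc finger protein, came first for both NRTN (0.25) and RGS10 (0.20), and its rho with NRTN, 0.03 before E2, was 0.21, 0.23 and 0.32 after 2, 4 and 8 h. MSX1, a homeobox gene of Müllerian epithelium, came second for NRTN (0.22). For G0S2 the highest were the ribosomal protein genes RPL3 (0.23) and RPL7A (0.22). ANKRD1, a common readout of YAP activity, was the lowest gene for G0S2 (-0.22), RGS10 (-0.18) and NRTN (-0.24). FAM43A was highest with ELF3 (0.17), an epithelial ETS factor that was also among its nearest genes by course over time. RNF223 was highest with THUMPD3-AS1 (0.18) and JUND (0.16), and the highest mean rho of KCNK15 was 0.08 (AL139089.1). The median over all genes was at most 0.01 for each member.

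In Ishikawa, 2819 barcodes without a time point call but inside the study's filters held G0S2 at 116 CPM (113 to 119) and NRTN at 46.7 CPM (44.9 to 48.5), within the range of the treated pools, and RNF223 at 9.48 CPM (8.69 to 10.3), below each treated pool and above the 0 h pool.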
